A study of Mus musculus and Acomys cahirinus with 2 samples.

Results

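In the mouse ear library, 1627 of 7632 cells (21.3%, exact binomial 95% interval 20.4 to 22.3) carried mRNA of Sostdc1, a secreted antagonist of BMP and Wnt signals, together with mRNA of the aldehyde dehydrogenase Aldh3a1 or the alcohol and retinol dehydrogenase Adh7. They were chosen by unique molecular identifier (UMI) counts, where each UMI stands for 1 captured mRNA molecule. A member had at least 3000 UMIs, 200 genes and at most 20% mitochondrial UMIs. It also had at least 2 Sostdc1 UMIs, at least 2 UMIs of Aldh3a1 and Adh7 together, under 5 UMIs of Krt79 (a keratin of the upper follicle) and at most 1 UMI of Lgr5 and Lhx2 together (stem cell genes of the lower follicle). The working name of these cells called them follicle cells marked also by Stra6, Lmo1 and Vdr. Only part of them matched that name: 539 members, 33.1%, lay in 1 expression cluster where those markers were all high. The other 1088 lay mostly among cells with the keratins of the epidermis. That cluster was picked by its Stra6 level, so the high markers in it describe it and do not test the name. The cells chosen by the gate are therefore called Sostdc1 and enzyme double-positive cells, or members, below.

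The hair follicle renews itself from stem cells in its bulge, and its upper part, the isthmus and infundibulum, joins the sebaceous gland and the epidermis. BMP signals hold bulge stem cells at rest and Wnt signals start the hair cycle, and Sostdc1 can dampen both pathways. Retinol enters cells through the receptor Stra6 and is oxidised to retinal by enzymes that include Adh7, then to retinoic acid by aldehyde dehydrogenases of another family. Aldh3a1 removes aldehydes made by lipid oxidation. The vitamin D receptor Vdr is needed for the hair cycle after birth, and Lmo1 is a LIM-only transcriptional cofactor.

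The series holds 1 library of adult Mus ear skin and 1 of adult Acomys (spiny mouse) ear skin, both titled day 0 and made by 10x droplet sequencing of 3' mRNA ends. The design text speaks of injured ears and the titles of day 0, and no treatment or genotype is given. With 1 library per species there is no replicate, so no test was made between groups, and intervals below cover counting error only. Number, sex and pooling of the animals are not given in the sources used here.

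The Mus library held 130039670 UMIs in all. Of 7648 barcodes with at least 3000 UMIs, 16 were left out for their mitochondrial share and none for too few genes. Members had a median of 10950 UMIs (3006 to 63965) and 2721 genes, and the 6005 other cells had medians of 11376 and 2721. Acomys gave 4697 cells from 71042559 UMIs, so members were 1627 of 12329 cells in both libraries. The libraries shared 34 cell barcodes, 0.445% of the Mus cells. The 466 Mus cells (6.11%) with the highest doublet scores from Scrublet, the number expected at this loading, held 146 members (8.97%) and 5.33% of the other cells, and were kept except in an alternative.

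Promoters are shown for 3 of the marker genes because the gate or the name of the cells rests on them. They are the 150 bases before a transcription start on the gene's strand, from RefSeq on build GRCm38.p6, which is mm10. Adh7 lies on chromosome 3 from 138198064 to 138232042, Stra6 on chromosome 9 from 58063793 to 58154004 and Vdr on chromosome 15 from 97854427 to 97908296. The genes whose promoters are not shown are Sostdc1 on chromosome 12 from 36314169 to 36318452, Aldh3a1 on chromosome 11 from 61208510 to 61218418 and Lmo1 on chromosome 7 from 109138565 to 109175207. The stretches shown are chr3:138217623-138217772 (plus strand) for Adh7, chr9:58129199-58129348 (plus strand) for the second of 4 listed starts of Stra6, and chr15:97908297-97908446 (minus strand) for Vdr. Capitals mark the matches to any motif searched.
Adh7: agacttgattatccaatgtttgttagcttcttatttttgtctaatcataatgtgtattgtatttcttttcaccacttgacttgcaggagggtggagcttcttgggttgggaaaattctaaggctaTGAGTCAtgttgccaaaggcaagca
Stra6: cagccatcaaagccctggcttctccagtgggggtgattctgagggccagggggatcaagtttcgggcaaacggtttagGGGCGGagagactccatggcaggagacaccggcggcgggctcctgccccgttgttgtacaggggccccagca
Vdr: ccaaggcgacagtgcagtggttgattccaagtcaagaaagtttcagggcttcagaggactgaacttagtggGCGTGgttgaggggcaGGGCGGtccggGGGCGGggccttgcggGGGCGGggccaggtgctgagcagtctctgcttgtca

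The motifs were searched on both strands in the 250 bases before each start. The Adh7 window held 1 AP-1 site (TGANTCA, in 6.75% of 32851 listed promoters) and 1 TATA box (TATAAA, 12.4%). The Vdr window held 3 GC boxes (GGGCGG, 32.7%) and 1 core of the xenobiotic response element bound by Ahr (GCGTG, 28.2%). The Stra6 window held 1 GC box. A nuclear receptor half-site (AGGTCA, 14.0%) and a Sox core (AACAAT, 9.42%) were also searched. A match is a run of letters, not a shown binding site.

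The gate was met mostly at low counts. Sostdc1 was at 2 UMIs in 446 members, at 4 or more in 924 and at 10 or more in 362, with a median of 4 and a highest count of 54. Among all other cells, 53.4% had no Sostdc1 UMI. Aldh3a1 was at 0 in 56 members and Adh7 at 0 in 424, and the median of both together was 5 UMIs. Of the Mus cells, 2634 had at least 2 Sostdc1 UMIs and 1823 of these had the enzymes. The Krt79 limit then took out 148 cells and the Lgr5 and Lhx2 limit 48.

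**Figure D1:**
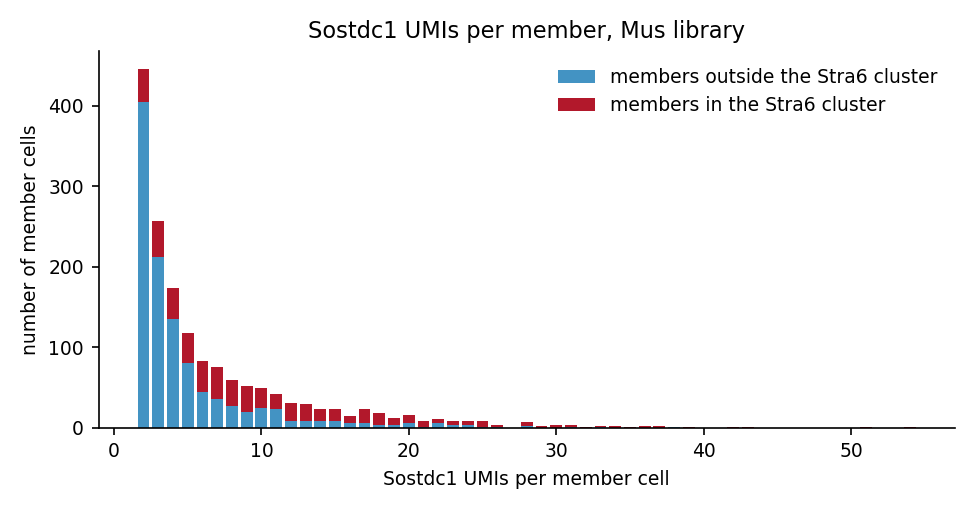
Sostdc1 UMIs per member cell (x axis) against the number of member cells (y axis), stacked for members in the Stra6 cluster (red) and outside it (blue). At 2 UMIs, 41 of 446 members lie in the cluster, and at 10 or more UMIs 233 of 362.

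Cells just inside and just outside each limit are described here without a test. The 446 members at 2 Sostdc1 UMIs had 3.14 CPM of Stra6 and 201 CPM of Lmo1, where CPM is a gene's UMIs per 1000000 UMIs summed over the cells. The 862 cells at 1 Sostdc1 UMI that met the rest of the gate had 1.41 and 140 CPM. The 350 members at 2 enzyme UMIs had 2.45 CPM of Stra6, against 0.213 CPM in 378 cells at 1. For the Krt79 limit, 22 members at 4 UMIs had 8.10 CPM of Stra6 (3 UMIs) and 375 CPM of Lmo1, and 19 cells at 5 had 0 and 409 CPM. For the last limit, 78 members at 1 UMI of Lgr5 and Lhx2 had 435 CPM of Lmo1 and 22 cells at 2 had 295. At the Krt79 limit the intervals of inside and outside overlapped for both genes.

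Clustering of all Mus cells, done without the 6 gate genes, gave 23 clusters and put members into 21 of them. The cluster with most members held 539 of its 664 cells (81.2%). Its leading genes by fold included Vsnl1, Stra6, Krt7, Rasgrf1, E030044B06Rik, Cdo1, Cldn8, Il7 and Medag. It was picked as the cluster with the highest Stra6 level and is called the Stra6 cluster here. The 125 cells of it outside the gate failed mainly on Sostdc1 (88 cells under 2 UMIs), then on the enzymes (30), Krt79 (30) and Lgr5 and Lhx2 (12). Elsewhere, members were 19.0% of a cluster led by Rspo3 and Cxcl14 (273 cells), 19.9% of one led by Mmp3 and Mmp10 (253) and 36.8% of one led by the mitotic genes Nusap1 and Top2a (157). Only 2 of 139 cells (1.44%) of the endothelial-marker cluster met the gate.

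**Figure D2:**
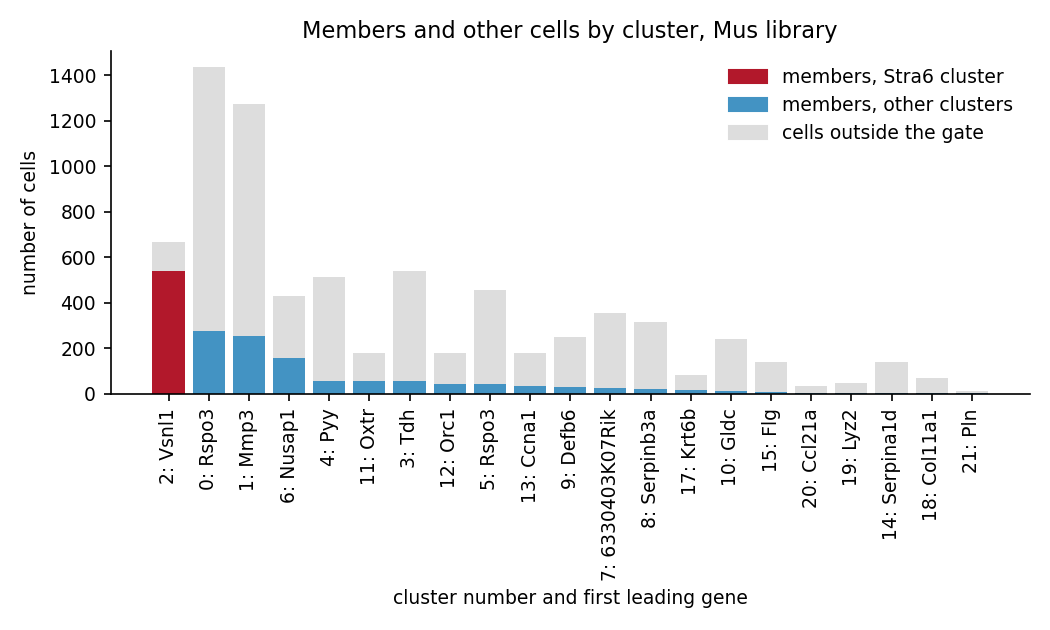
Cells per cluster of the Mus library (y axis), with clusters on the x axis named by number and first leading gene, members coloured and cells outside the gate grey. The Stra6 cluster (2) holds 539 members of 664 cells, and the 1088 other members are spread over 20 clusters.

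The keratins of the groups differed in the same way. A cell counted as basal with at least 20 UMIs of the basal keratins Krt5 and Krt14 together, and more than of the differentiation keratins Krt1 and Krt10. It counted as suprabasal with at least 50 UMIs of Krt1 and Krt10, and more than of Krt5 and Krt14. These minimums were not scaled to depth. Inside the cluster 532 of the 539 members (98.7%) were basal. Outside it, 898 members (82.5%) were basal by this measure and 188 (17.3%) suprabasal. Members inside the cluster were shallower (median 7418 UMIs) than those outside (13494 UMIs), so fewer molecules were drawn from each. The part of depth in meeting a gate of 2 UMIs was not tested beyond the thinned gate given below.

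The marker genes were all higher inside the Stra6 cluster. Sostdc1, a gate gene, stood at 1292 CPM in members inside it, 307 CPM in members outside and 81.0 CPM in all other cells. It stood at 554 CPM in 195 Lgr5/Lhx2 cells (at least 2 UMIs of Lgr5 and Lhx2, under 5 of Krt79), at 166 CPM in 448 Krt79 cells (at least 5 Krt79 UMIs) and at 35.4 CPM in 2158 basal cells, which were defined with at most 1 Sostdc1 UMI, so that limit caps their level. Aldh3a1 was at 821, 213 and 101 CPM inside, outside and in other cells, and Adh7 at 481, 82.7 and 47.3 CPM. Krt79 cells had 265 CPM of Aldh3a1 and 115 CPM of Adh7, both above members outside the cluster. Lgr5/Lhx2 cells had 151 and 94.4 CPM of the same genes. Barcodes of 1 to 10 UMIs, which hold free RNA, had 182, 146 and 69.8 CPM of Sostdc1, Aldh3a1 and Adh7. In 137 cells of the endothelial-marker cluster 14.6% had a UMI of Sostdc1, 16.8% one of Aldh3a1 and 6.57% one of Adh7. These genes chose the cells, so the differences are given as a description.

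Stra6, the retinol receptor, was at 69.1 CPM inside the cluster, 3.92 CPM in members outside it and 2.81 CPM in other cells, but the cluster was built on it and other expressed genes. Lmo1 was at 996, 218 and 134 CPM, and Vdr at 151, 31.0 and 25.4 CPM. Lgr5/Lhx2 cells had 3.28 CPM of Stra6, 300 CPM of Lmo1 and 83.9 CPM of Vdr. Krt79 cells had 18.5, 252 and 52.8 CPM of the same genes. Among these classes each marker was highest inside the cluster, which for Stra6 is tied to how the cluster was picked. Other clusters also held them: the one led by Defb6 and Dgat2l6 had 45.5 CPM of Stra6 and 98.6 CPM of Vdr. The one led by Oxtr and Il13ra2 had 572 CPM of Lmo1. All cells of the Stra6 cluster together had 63.4, 943 and 151 CPM of Stra6, Lmo1 and Vdr. Members outside the Stra6 cluster were nearer to basal cells (Stra6 1.84, Lmo1 180, Vdr 30.1 CPM) than members inside it were. Of the Lgr5/Lhx2, Krt79 and basal classes, basal cells were nearest to members outside for Vdr alone. Lgr5/Lhx2 cells, with 5 UMIs, were nearest for Stra6 and Krt79 cells for Lmo1.

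**Figure D3:**
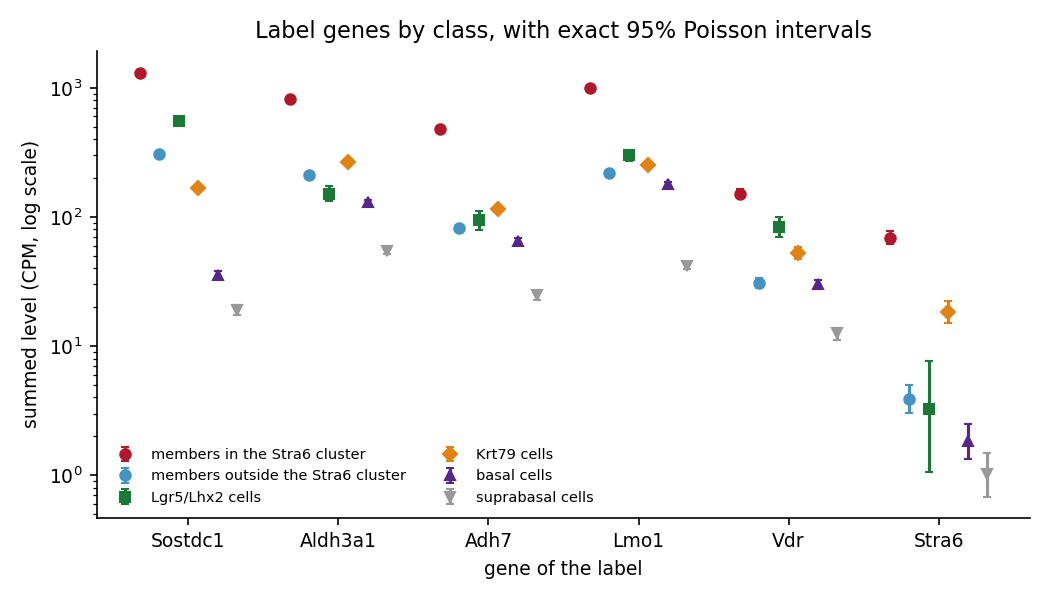
Summed level (CPM, log scale, y axis) of the 6 marker genes (x axis) in 6 classes of Mus cells, with exact 95% Poisson intervals. Members in the Stra6 cluster are highest for each gene, with Sostdc1 at 1292 and Stra6 at 69.1 CPM.

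A UMI of Stra6 was seen in 35.8% of members inside the cluster, 4.14% outside it and 2.70% of other cells. When each cell was thinned to 3000 UMIs the shares were 17.3%, 1.56% and 0.949%. For Lmo1 the shares were 98.5%, 87.1% and 67.8%, and 92.2%, 45.1% and 33.1% after thinning. Vdr was seen in 68.5%, 35.9% and 25.6%, and in 36.9%, 9.28% and 8.58% after thinning. The part of free RNA in these shares was not tested. In 137 cells of the endothelial-marker cluster, 54.0% had a UMI of Lmo1 (34.3% thinned, median 4443 UMIs), 5.11% one of Vdr and 0.730% one of Stra6. Lmo1 was at 155 CPM and Sostdc1 at 32.4 CPM in that cluster. In suprabasal cells, with at least 50 UMIs of Krt1 and Krt10 and more than of Krt5 and Krt14, Lmo1 was at 41.8 CPM (12.4% of cells thinned). The endothelial-marker cluster is therefore not taken as a background without Lmo1. The barcodes of free RNA had 206 CPM of Lmo1, 33.8 CPM of Vdr and 3.67 CPM of Stra6. The Lmo1 level of members outside the cluster, 218 CPM, lay close to that of free RNA, which does not give the part of free RNA in those cells.

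Set against all other cells, members had 64 genes with a CPM ratio of 2 or more and 146 with a ratio of 0.5 or less, out of 6714 genes whose mean over both groups reached 10 CPM, which is 0.953% and 2.17%. Below, higher and lower counts of genes use these limits. Higher genes were 30.5% of those past 2-fold, 18.9% when each cell weighed the same and 41.0% when other cells were kept to the depth range of the members. Of 30 follicle transcription factors compared, 4 were higher and 1 lower. Among the higher genes that the rule named were the transcription factor Sox9 (48.0 against 19.8 CPM, ratio 2.42, 95% interval 2.23 to 2.62), the homeobox gene Barx2 (32.4 against 13.8 CPM, 2.36, 2.14 to 2.59) and Lmo1 (379 against 134 CPM, 2.83, 2.74 to 2.91). Also named were the growth factor pleiotrophin, Ptn (221 against 95.5 CPM), the prostaglandin-degrading enzyme Hpgd (43.1 against 17.2 CPM), Fam132a, Lgals9, Adgrl2 and the keratinocyte chemokine Ccl27a (290 against 101 CPM). Reads of Ccl27a can be split with near-identical copies, so its level is uncertain.

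The rule also named genes of mitosis, and of 12 cell cycle genes listed and compared 6 were higher and 0 lower. Ube2c, an anaphase enzyme, was at 166 against 66.5 CPM (ratio 2.49), the topoisomerase Top2a at 103 against 47.8 CPM (2.15), and Cenpf, Ccna2, Nusap1, Ccnb1, Aurkb, Cdk1 and Kif22 were also over 2-fold higher. The direction of all 9 of these flipped when the gate was applied to counts thinned to 3000 UMIs per cell, which 503 cells met. Ube2c then had a ratio of 0.507, Cenpf 0.567, Nusap1 0.644, Top2a 0.723, Aurkb 0.740, Ccnb1 0.753, Ccna2 0.765, Kif22 0.804 and Cdk1 0.898. Other ratios were larger under that gate, at 6.88 for Barx2, 6.51 for Sox9, 5.34 for Lmo1, 4.41 for Vdr and 3.07 for Ptn. Of the 503 cells, 74.2% lay in the Stra6 cluster.

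**Figure D4:**
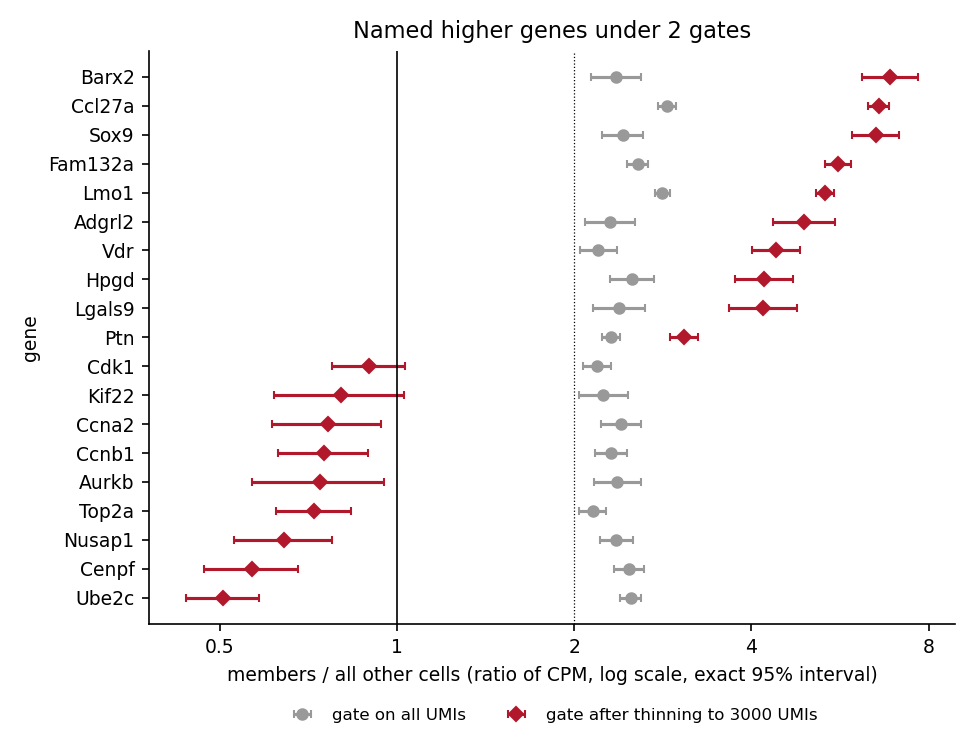
Ratio of CPM, members to all other cells (x axis, log scale, exact 95% intervals), of higher genes named by the rule (y axis), for the gate on all UMIs (grey) and on counts thinned to 3000 UMIs (red). The follicle and other genes move up and the 9 mitotic genes move below 1.

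The lower genes named by the rule included genes of sebaceous gland, cornified layer and dermis. By list, 3 of 7 sebaceous, 3 of 9 suprabasal, 4 of 7 isthmus, 4 of 4 fibroblast and 2 of 2 myeloid and Langerhans markers compared were lower. The fatty acid binding protein Fabp4 was at 8.68 against 89.1 CPM, the lipid droplet gene Cidea at 8.91 against 61.7 CPM, the elongase Elovl6 at 24.4 against 112 CPM and the hydroxylase Fa2h at 4.50 against 34.2 CPM. Filaggrin, Flg, was at 5.75 against 47.8 CPM and Crct1 at 35.7 against 230 CPM. Cst6 and Defb6, genes of Krt79-type cells which the gate removes, were at 607 against 3083 and 99.2 against 468 CPM. Krt79 cells also held 4161 of the 4831 Cidea UMIs and 2266 of the 2673 Fa2h UMIs of all other cells. The sebaceous and isthmus counts are thus tied to the gate and are a description. Over the alternatives, which included no Krt79 limit, the highest ratios were 0.333 for Cidea, 0.216 for Fa2h, 0.335 for Elovl6, 0.389 for Cst6 and 0.979 for Defb6. Col3a1, a fibroblast collagen, was at 6.68 against 35.7 CPM.

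Members as a whole were also set against single classes. Against Lgr5/Lhx2 cells 2.1% of 7101 genes were higher and 5.94% lower. The higher genes included the keratins Krt10 (9218 against 2800 CPM) and Krt2 (4929 against 1583 CPM) and the transcription factor Foxq1 (83.6 against 17.0 CPM). Of 9 suprabasal markers compared 4 were higher and 2 lower, and of 9 basal markers 0 passed 2-fold. Among the lower genes were Cd34 (2.32 against 70.8 CPM) and Shisa2 (3.53 against 135 CPM). Against Krt79 cells 3.73% of 6842 genes were higher, Serpinb10 (91.1 against 14.6 CPM) and the growth factor binder Igfbp7 (264 against 55.5 CPM) among them, and 6.49% were lower, led by sebaceous genes. Against basal cells 2.75% of 6679 genes were higher and 0.464% lower. Basal cells were defined without a UMI of Mki67 or Top2a, so the mitotic genes that led the higher side there follow from that definition.

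Members with more Sostdc1 were more often in the Stra6 cluster. At 2 to 3 Sostdc1 UMIs, 86 of 703 members lay in it (12.2%), at 4 to 9 UMIs 220 of 562 (39.1%) and at 10 or more 233 of 362 (64.4%). Stra6 was at 4.08, 19.3 and 49.7 CPM in these 3 tiers and Vdr at 35.6, 61.9 and 99.7 CPM. Krt10, the keratin of the spinous layer, was at 13934, 5164 and 3402 CPM. The median depth was 12797, 9950.5 and 9322 UMIs in the same order.

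The enzymes split the members in a like way. Of 1147 members with both enzymes, 42.9% lay in the cluster, with 24.0 CPM of Stra6 and 462 CPM of Lmo1. Of 424 with Aldh3a1 and no Adh7, 9.43% lay in it, with 3.56 and 208 CPM. Of 56 with Adh7 and no Aldh3a1, 12.5% lay in it, with 3.93 and 164 CPM. The both-enzyme members were also the shallowest, at a median of 10371 UMIs against 12426.5 and 12152.5. A Stra6 UMI was seen in 238 members, 81.1% of them inside the cluster, and their Lmo1 was at 893 CPM against 311 CPM in the 1389 members without one.

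The 539 members inside the Stra6 cluster are described next by gene groups, with their levels beside members outside it, other cells and the nearest follicle classes. Against all other cells, 4.11% of 6810 genes were higher and 5.9% lower. Against members outside the cluster, the shares were 3.39% and 4.41% of 6819 genes. The cluster was drawn from these same genes, so every value that follows is a description of it. The median log2 ratio over all genes was 0.08, and it moved to 0.19 when CPM were computed without ribosomal and mitochondrial genes. Higher genes were 41.1% of those past 2-fold, and 51.8% with that scaling.

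Of 37 retinoid genes, 15 were at a level to compare (median log2 ratio 0.09). Of these, 2 were higher, among them the uptake receptor Stra6, as given above, and 4 were lower. Carriers of retinoic acid were among the lower. Crabp2, which carries retinoic acid to its receptors, was at 11.9 against 80.5 CPM in other cells, and Fabp5, a lipid and retinoic acid carrier, at 136 against 883 CPM. The retinoic acid receptor Rarg was at 122 against 95.5 CPM and its partner Rxra at 31.4 against 26.0 CPM, within 2-fold. Aldh1a1, a retinal dehydrogenase, was at 15.7 CPM, against 2.11 CPM outside and 1.80 CPM in other cells.

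Of 13 aldehyde and alcohol dehydrogenases compared with all other cells, among 31 listed, 0 were higher and 3 lower. Aldh1a1, given above, was below the level to compare. Adh1, another retinol dehydrogenase, was at 4.71 against 23.5 CPM in other cells, and Aldh3b2 at 18.6 against 92.0 CPM. Aldh2, the mitochondrial acetaldehyde enzyme, was at 233 against 173 CPM, and Adh5 at 90.7 against 76.5 CPM.

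Genes of detoxification and glutathione use were more often higher: 10 of 33 compared, with 4 lower (46 listed, median log2 ratio 0.44). The glutathione transferases Gstm1 (606 against 187 CPM), Gstm5 (606 against 123 CPM) and Gsta3 (64.6 against 12.7 CPM) were higher. Gpx2, a peroxide-reducing enzyme, was at 34.1 against 7.32 CPM, and the quinone reductase Nqo1 at 29.4 against 7.22 CPM. Ahr, the receptor that senses xenobiotics, was at 81.2 against 27.4 CPM. Gsta1 and Gsta2 had ratios of 0.09 and 0.12, so the family was not higher as a whole, and its members share sequence that counting can split.

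Follicle transcription factors were higher in 12 of 34 compared and lower in 5 (46 listed, median log2 ratio 0.44). Sox9, which outer root sheath and bulge cells use, was at 157 CPM inside the cluster, 19.7 CPM in members outside it and 19.8 CPM in other cells. Barx2 was at 108, 12.8 and 13.8 CPM, Runx1 at 35.5, 4.10 and 3.72 CPM, Foxc1 at 42.0, 4.51 and 6.88 CPM and Gata6, known from the upper follicle and sebaceous duct, at 28.5, 1.29 and 4.14 CPM. In these 5 genes, members outside the cluster were near the level of other cells or below it. Nfatc1, a bulge quiescence factor, was at 37.0 against 12.9 CPM and Irx1, outside that list, at 43.8 against 3.81 CPM. The lower ones were Cux1, with a ratio of 0.32, and 4 regulators of late differentiation. These were Grhl3, Zfp750, Ovol1 and Grhl1, with ratios of 0.20, 0.29, 0.34 and 0.36.

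Among BMP and TGF-beta genes, 2 of 18 compared were higher and 3 lower, or 1 and 5 of 21 when each cell weighed the same. Follistatin, Fst, which binds activin, was at 69.8 against 19.6 CPM in other cells, and the inhibitor Smad7 at 14.8 against 6.72 CPM. The ligand Bmp4 was at 7.18 against 27.3 CPM and the target gene Id3 at 93.4 against 228 CPM, while Id1, another target, was at 183 against 172 CPM. Wnt genes were split, with 6 higher and 6 lower of 23, or 3 and 8 of 24 when each cell weighed the same. The receptor Fzd7 (25.8 against 4.55 CPM) and the ligand Wnt16 (20.9 against 5.83 CPM) were higher, and the ligand Wnt3 (13.2 against 39.5 CPM) was lower. The Wnt target Axin2 was at 26.9 against 18.3 CPM.

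Of 11 hedgehog and Notch genes compared, 4 were higher and 0 lower, or 2 and 0 when each cell weighed the same. The 4 were the Notch ligands Dll1 (28.5 against 13.5 CPM) and Jag2 (ratio 2.21), the Notch modifier Lfng (2.90) and the hedgehog co-receptor Boc (3.53). The hedgehog targets Ptch1 and Gli1 were at 4.26 and 0.449 CPM inside the cluster. Of 10 vitamin D genes compared, Vdr and Cyp27a1, a sterol hydroxylase able to activate vitamin D (28.3 against 6.80 CPM), were higher and Dhcr7 lower. Cyp24a1, the classical target that breaks down active vitamin D, had no UMI in any class of the Mus cells described.

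Growth factors, chemokines and their receptors were higher in 6 of 20 compared and lower in 2, or 5 and 4 of 21 when each cell weighed the same. Ptn was at 365 against 95.5 CPM, the platelet-derived growth factor Pdgfa at 87.5 against 27.5 CPM, the neurotrophin receptor Ntrk2 at 48.0 against 8.18 CPM and Fgfr1 at 32.3 against 6.88 CPM. The chemokine Cxcl12 was at 40.4 CPM inside the cluster, against 3.28 CPM in members outside it and 5.60 CPM in other cells. Adhesion and basement membrane genes differed little, with 2 of 20 higher, and the integrin Itgb8 (19.8 against 2.31 CPM) stood farthest.

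Keratins were mostly lower, in 10 of 15 compared, with 2 higher (median log2 ratio -2.40). Krt15, a keratin of the bulge and basal layer, was at 6531 against 2488 CPM in other cells and Krt7 at 37.0 against 4.60 CPM. Krt10 was at 2355 against 17744 CPM, Krt1 at 148 against 711 CPM and Krt6b, a keratin of the companion layer and of stressed epidermis, at 3.82 against 29.8 CPM. All 9 suprabasal markers were lower, and 0 of 9 basal markers passed 2-fold either way. Isthmus markers were mixed, 4 of 9 higher and 3 lower, or 3 and 4 when each cell weighed the same. Lrig1 (37.5 against 6.72 CPM) and Plet1 (148 against 45.9 CPM) were among the higher, and Cst6 (500 against 3083 CPM) among the lower.

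The Lgr5/Lhx2 cells, which the gate excludes, were defined by UMIs of those lower follicle stem cell genes and under 5 Krt79 UMIs alone. Against them, 1.72% of 7143 genes were higher in members inside the Stra6 cluster and 5.74% lower (median log2 ratio over all genes -0.14). Sox9 (157 against 199 CPM), Barx2 (108 against 134 CPM), Runx1 (35.5 against 54.4 CPM) and Krt15 (6531 against 9066 CPM) were within 2-fold. The bulge surface marker Cd34 was at 2 UMIs against 108 (ratio 0.00634, 95% interval 0.000759 to 0.0235). Tbx1 was at 25.8 against 160 CPM, Id2 at 28.7 against 212 CPM and Mycn, with 3 UMIs against 116, had a ratio of 0.00886 (0.0018 to 0.0265). Slc38a4, an amino acid transporter, had 0 UMIs against 53. Of 10 outer bulge markers compared, 6 were lower and 1, Foxc1 (42.0 against 17.7 CPM), higher. The 2 groups were set apart by Lgr5 and Lhx2, themselves bulge genes, so this count is tied to the gate and is a description.

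Signalling genes were counted against Lgr5/Lhx2 cells in the same way. Of 24 BMP and TGF-beta genes, 10 were lower and 0 higher (median log2 ratio -0.70), with Fst at 69.8 against 242 CPM, Id3 at 93.4 against 468 CPM and the BMP antagonist Grem1 at 0.673 against 27.5 CPM. Of 26 Wnt genes, 10 were lower, among them the inhibitors Dkk3 (2.47 against 58.3 CPM) and Wif1 (2.92 against 54.4 CPM), and 2 were higher, Wnt16 and Fzd6. Of 12 hedgehog and Notch genes 1 was higher and 1 lower, the hedgehog target Ptch1 (4.26 against 26.9 CPM). Of 24 growth factors, chemokines and receptors, 2 were higher and 6 lower. The neurotrophin Bdnf was at 0.898 against 40.6 CPM while Ntrk2, which binds it, was at 48.0 against 8.52 CPM. Summed fibroblast markers were at 31.6 CPM inside the cluster and 492 CPM in Lgr5/Lhx2 cells, with 5 of 5 compared lower, and T cell markers at 25.6 and 113 CPM. The part of such RNA in these differences was not tested.

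Stra6 was among the genes higher than in Lgr5/Lhx2 cells, with 308 UMIs against 5 (ratio 21.1, 8.94 to 65.4). Gsta3 (64.6 against 12.4 CPM), Gstm1 (606 against 205 CPM), Mgst1 (318 against 74.0 CPM) and Ahr (81.2 against 17.7 CPM) were among 7 of 33 higher detoxification genes, with 1 lower. Of 9 isthmus markers 4 were higher and 3 lower. Gata6 (28.5 against 4.59 CPM), Lrig1 (37.5 against 12.4 CPM) and Plet1 (148 against 68.1 CPM) were among the higher. Outside these lists, 2 of the higher genes were the protease inhibitor Slpi (42.0 against 3.28 CPM, ratio 12.8, 5.39 to 39.9) and the cyclin Ccnd2 (748 against 158 CPM, 4.74, 4.15 to 5.42). Of 12 cell cycle genes compared here, 0 were higher and 7 lower (median log2 ratio -1.13). Against all other cells, 2 of these 12 were higher and 6 lower. Krt17 was at 223 against 2371 CPM. The Lgr5/Lhx2 cells were shallower, with a median of 5807 UMIs.

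**Figure D5:**
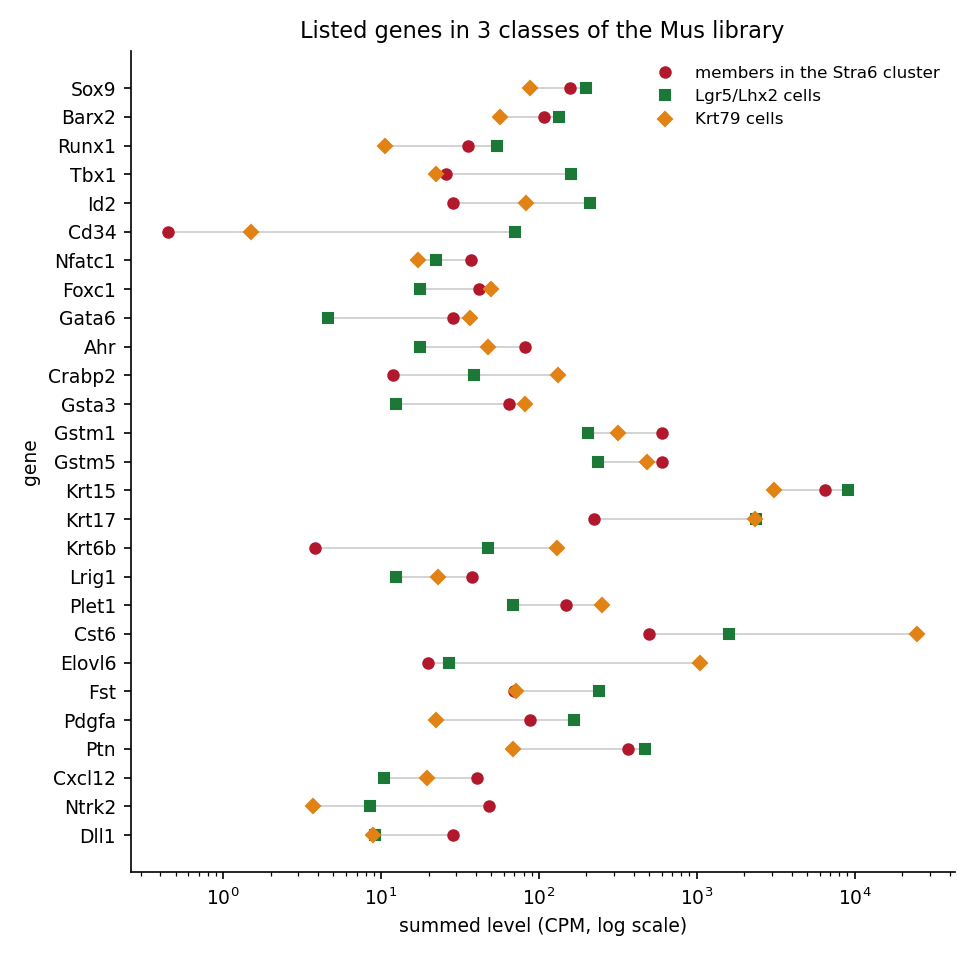
Summed level (CPM, log scale, x axis) of listed genes (y axis) in members of the Stra6 cluster (red circles), Lgr5/Lhx2 cells (green squares) and Krt79 cells (orange diamonds). Sox9, at 157 CPM, lies between 88.1 CPM in Krt79 cells and 199 CPM in Lgr5/Lhx2 cells, Cd34 is high in Lgr5/Lhx2 cells alone of these, and Elovl6 and Cst6 in Krt79 cells.

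Against the 448 Krt79 cells, 3.69% of 6883 genes were higher in members inside the cluster and 7.24% lower (median log2 ratio over all genes 0.02). Higher genes were 33.8% of those past 2-fold, and 53.2% without ribosomal and mitochondrial genes, where that median was 0.20. All 10 sebaceous markers compared were lower, with Cidea at 7.41 against 699 CPM (ratio 0.0106, 0.00728 to 0.0149), Elovl6 at 19.8 against 1056 CPM and Elovl3 at 4.71 against 295 CPM. Cst6, a cysteine protease inhibitor of the upper follicle, was at 500 against 24955 CPM. Of 17 retinoid genes, 9 were lower and 1, Stra6, higher. Crabp2 was at 11.9 against 132 CPM and Adh1 at 4.71 against 49.9 CPM. Of 36 detoxification genes 2 were higher and 10 lower, with Mgst1 at 318 against 2232 CPM. Foxc1 (42.0 against 49.4 CPM) and Gata6 (28.5 against 36.5 CPM) were within 2-fold.

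Adhesion and basement membrane genes were higher than in Krt79 cells in 8 of 17 and lower in 0, with the hemidesmosomal collagen Col17a1 at 292 against 107 CPM, Cdh13 at 104 against 22.2 CPM and Postn at 70.0 against 22.5 CPM. Hedgehog and Notch genes were higher in 6 of 11 and lower in 1, with Gas1 at 233 against 60.5 CPM and Dll1 at 28.5 against 8.91 CPM. Growth factors, chemokines and receptors were higher in 7 of 21 and lower in 3. Ntrk2 was at 48.0 against 3.70 CPM (ratio 13.0, 8.36 to 21.2), Ptn at 365 against 68.7 CPM, Fgfr1 at 32.3 against 5.88 CPM and the matrix protein Ctgf at 95.6 against 7.56 CPM (12.6, 9.28 to 17.6). Hpgd was at 83.9 against 10.4 CPM. Runx1 (35.5 against 10.6 CPM) and Nfatc1 (37.0 against 17.1 CPM) were among the 6 of 33 follicle transcription factors that were higher here, besides Lmo1, Vdr, Hopx and Arntl. Of the same 33, 5 were lower, among them Zfp750, Grhl1, Id2 and Ovol1, with ratios of 0.24, 0.46, 0.35 and 0.38.

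The 1088 members outside the Stra6 cluster were close to other cells. Against all other cells, 1.23% of 6670 genes were higher and 1.74% lower. Higher genes were 41.4% of those past 2-fold, and 29.7% when each cell weighed the same. None of 30 follicle transcription factors, 14 retinoid genes or 29 detoxification genes compared passed 2-fold in either direction, except 1 retinoid gene lower when each cell weighed the same, whereas 7 of 12 cell cycle genes were higher (median log2 ratio 1.28). Ube2c was at 206 against 66.5 CPM and Top2a at 126 against 47.8 CPM. A UMI of Mki67 or Top2a was seen in 35.8% of members outside the cluster, 15.2% inside it and 22.4% of other cells, and in 21.8%, 5.01% and 9.59% after thinning to 3000 UMIs. The median depth of 13494 UMIs outside the cluster stood above 7418 UMIs inside it and 11376 UMIs in other cells.

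Members were also set against the other cells of their own cluster. In the cluster led by Rspo3, 4 of 6568 genes (0.0609%) were at least 2-fold higher in members, and Lmo1 was at 238 against 201 CPM (ratio 1.18, 1.08 to 1.29). In the Mmp3 cluster 1 of 6450 genes (0.0155%) was higher and the Lmo1 ratio was 1.22 (1.12 to 1.33). In the mitotic cluster 7 of 6830 genes (0.102%) were higher, among them Barx2, Fst and Fam132a, with ratios of 1.64 for Lmo1 and 4.76 for Stra6 (1.97 to 13.2). In the Stra6 cluster itself 60 of 6861 genes (0.875%) were higher and 100 lower in members than in the 125 cells outside the gate, with Lmo1 at 1.42, Stra6 at 1.86 and Vdr at 1.03.

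Markers of other cell types were low in members of both sorts. Inside and outside the Stra6 cluster, summed endothelial markers were at 5.39 and 11.6 CPM, fibroblast markers at 31.6 and 55.3 CPM and myeloid and Langerhans markers at 56.6 and 62.5 CPM. The other cells had 34.1, 198 and 172 CPM of these lists. Melanocyte markers were at 15.9 CPM inside the cluster and 2.87 CPM outside, and Merkel cell markers at 0.673 and 0.410 CPM, with 5 of 6 at 0 inside.

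In the Acomys library the same gate was met by 2 of 4697 cells (0.0426%, exact 95% interval 0.00516 to 0.154). Sostdc1 had at least 2 UMIs in 3 Acomys cells, while the enzymes passed their minimum in 4666, with Aldh3a1 at 3934 CPM and Adh7 at 1745 CPM outside the gate. In the Mus library, Sostdc1 passed in 2634 cells and the enzymes in 4081. The Acomys library had fewer cells with Sostdc1 and more with the enzymes. Symbols were matched by name between the species' gene lists, whose annotations differ, and Stra6, Lmo1 and Ccl27a of Acomys were not analysed here. Species, library and annotation cannot be told apart.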

How the data were processed

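Ear skin cells of 1 Mus and 1 Acomys library were measured by 10x droplet RNA sequencing. The deposited values are unnormalised UMI counts for each gene in each barcode. The authors used Cell Ranger 2.2.0 and named the build mm10, per the submitters' processing notes. For the Acomys gene list no build of its own is named. From the counts, UMIs were summed per class of cells and divided by the class total (CPM). Ratios of CPM carry exact 95% intervals from the binomial distribution given both totals, single CPM exact Poisson intervals and shares Clopper-Pearson intervals. Genes with a mean CPM of both classes of at least 10 were compared, without the 6 gate genes, and a ratio reaching 2, or 0.5 downward, counts as past 2-fold. A lone library gives no error between animals. Named genes were, against all other cells, the 20 higher and 10 lower ratios by the interval bound nearest to 1 among genes of at least 30 CPM and 20 UMIs in the higher class, and 8 each way for other pairs. Ribosomal, mitochondrial, histone, MHC, immunoglobulin, T cell receptor, Krtap, Lce and Sprr genes were left out of that naming. Marker genes of the cells and members of 30 gene lists were also named. Genes named from lists beyond that rule, and Irx1, were chosen after their values were seen.

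Clusters came from scanpy 1.11.5 and leidenalg 0.10.2 (counts scaled to 10000 per cell and logged, 2000 variable genes, 30 components, 20 neighbours, resolution 1), and thinning drew 3000 UMIs per cell (numpy 2.4.6, scipy 1.17.1, Python 3.11.15, matplotlib 3.10.9). The ratio and interval code was tested on simulated counts for the Mus members against other cells: 100 of 100 raised and 100 of 100 lowered genes passed 2-fold, 0 unchanged genes did, and 94.97% of intervals held the true ratio over 6540 genes. The counts were Poisson draws, which the intervals assume, and the true changes were set past 2-fold. The run thus checks the code alone, and not the spread between cells or clusters. The members and gene lists were chosen with earlier results of these data known, and the split by the Stra6 cluster after the clusters were seen. Alternatives changed depth, mitochondrial and gate limits, doublets, filters, scaling and clustering. Promoters are from RefSeq's GRCm38.p6 table, which listed 4 of 9 genes looked for. Some genes that the rule names are not reported here.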

Additional observations from a re-analysis of the deposited data

How the results depend on the processing

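Applied after thinning to 3000 UMIs, the gate took 503 cells, with minimums of 1 UMI 3297, with minimums of 4 UMIs 695 and with Adh7 alone 775, against 1627 in the report. The share of members in the Stra6 cluster was 33.1%, and it was 74.2%, 17.8%, 60.4% and 55.4% under those 4 settings, 36.7% with Aldh3a1 alone and 30.7% at a minimum of 5000 UMIs. Shares with a UMI under thinning, minimums of 1 and minimums of 4 were 29.0%, 8.01% and 27.6% for Stra6, 95.2%, 82.3% and 97.6% for Lmo1 and 60.0%, 36.5% and 59.0% for Vdr. Genes past 2-fold against all other cells (210) were 509, 81 and 420 under these settings, and against basal cells (215) 388 under thinning and 339 with minimums of 4. The cause was not tested. A filter at 50 CPM, or none, changed the genes compared and gave 71 and 4813 genes against all other cells, 46 and 4057 against basal cells, 130 and 6263 against Lgr5/Lhx2 cells (571) and 250 and 5426 against Krt79 cells (699). For members in the Stra6 cluster it gave 116 and 4667 against Lgr5/Lhx2 cells (533) and 261 and 4972 against Krt79 cells (752). The 9 cell cycle ratios that reversed under thinning were Ube2c 0.507, Cenpf 0.567, Nusap1 0.644, Top2a 0.723, Aurkb 0.740, Ccnb1 0.753, Ccna2 0.765, Kif22 0.804 and Cdk1 0.898. Of 510 values of the 30 genes named against all other cells, over 17 alternatives, 470 stayed past 2-fold and 501 on the same side of 1. For members in the Stra6 cluster, 95 of 95 values against Lgr5/Lhx2 cells and 96 of 96 against Krt79 cells stayed past 2-fold. Higher genes were 36.5% of those past 2-fold against Krt79 cells, and 46.8% without ribosomal and mitochondrial genes. Other clusterings put 495 to 550 members in the cluster highest in Stra6. Alternatives for the Stra6 cluster and for basal cells were chosen after seeing the data. Leaving out a replicate was not run, since each species has 1 library. No paired analysis was possible because there are no replicates. Genes under about 10 CPM are limited by counts.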
